A study of Mus musculus with 12 samples.

Results

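Transcripts of 5 matrix metalloproteinases (Mmp2, Mmp3, Mmp9, Mmp14 and Mmp15) and 5 of their inhibitors (Timp1, Timp2, Timp3, Timp4 and Reck) were followed in denervated and intact calf muscle of the mouse. These 10 genes were taken by symbol from the 25094 genes that each of 2 deposited tables lists, and all 10 carried the same RefSeq transcript in both tables and passed the filter on low values. The samples were polyadenylated RNA of gastrocnemius muscle from wild-type male mice of 2 inbred strains, C57BL/6 and BALB/c. The sciatic nerve on the right side had been severed 2 weeks earlier, with both stumps folded back and stitched to muscle. The left leg, labelled healthy, served as the comparison, and each strain and leg had 3 libraries. The labels mention a sham operation without saying whether it was done on the left legs, give no age, and do not tie the libraries of a group to separate mice, so the p-values reflect nothing but the spread among these libraries, which may be technical.

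Matrix metalloproteinases are zinc-dependent enzymes that cut collagens, laminins, fibronectin and other proteins outside the cell, and most are secreted as inactive proenzymes. The 4 TIMPs bind the active site of the mature enzymes, and RECK is a membrane-anchored inhibitor. Mmp14 (MT1-MMP) sits in the cell membrane, where a complex with TIMP2 captures and activates proMMP2, so that TIMP2 is both an inhibitor of MMP2 and a partner in its activation. In muscle, these enzymes act on the basement membrane around fibres and on the connective tissue between them.

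Upstream sequences are shown for 4 members because they stand for the main patterns below: Timp1 had the largest rise, Mmp14 and Mmp3 also rose, and Mmp15 fell in both strains. The rise of Mmp3 rests on few reads. The calls of Mmp3 in both strains and that of Mmp14 in BALB/c were lost after the rescaling described below. Each run is the 250 bases before the start site in RefSeq (GRCm38.p6), 5′ to 3′ on the gene's strand, with matches to the searched motifs in capitals.
Timp1, chrX:20869916-20870165, plus strand: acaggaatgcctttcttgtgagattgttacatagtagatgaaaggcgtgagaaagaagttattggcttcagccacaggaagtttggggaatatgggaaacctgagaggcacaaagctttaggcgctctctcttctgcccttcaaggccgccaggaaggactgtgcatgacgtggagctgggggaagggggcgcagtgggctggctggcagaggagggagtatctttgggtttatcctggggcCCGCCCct
Mmp14, chr14:54431348-54431597, plus strand: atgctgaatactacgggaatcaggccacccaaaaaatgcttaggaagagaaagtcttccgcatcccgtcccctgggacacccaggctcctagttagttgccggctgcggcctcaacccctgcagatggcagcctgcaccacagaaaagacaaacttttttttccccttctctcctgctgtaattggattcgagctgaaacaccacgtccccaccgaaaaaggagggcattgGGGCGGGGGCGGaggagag
Mmp3, chr9:7445572-7445821, plus strand: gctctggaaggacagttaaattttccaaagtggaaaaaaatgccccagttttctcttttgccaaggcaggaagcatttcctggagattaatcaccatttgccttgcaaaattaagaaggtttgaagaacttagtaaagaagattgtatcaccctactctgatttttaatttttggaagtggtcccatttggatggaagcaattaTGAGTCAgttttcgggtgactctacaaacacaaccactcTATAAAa
Mmp15, chr8:95352046-95352295, plus strand: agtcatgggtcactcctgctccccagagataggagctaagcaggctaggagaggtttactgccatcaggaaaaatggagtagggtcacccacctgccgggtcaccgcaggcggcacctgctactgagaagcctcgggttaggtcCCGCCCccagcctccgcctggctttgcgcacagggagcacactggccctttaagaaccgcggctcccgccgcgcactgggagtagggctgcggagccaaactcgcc
Of the 10 members, 8 matched the RefSeq promoter table (all but Mmp2 and Mmp9), and windows from 250 bases before to 50 bases after the start site were searched on both strands. Matches in these windows did not overlap one another. The AP-1 motif TGANTCA, which reads the same on both strands, occurred in 1 of the 8 windows, that of Mmp3, where it begins 46 bases before the start site. It occurred in 7.81% of all 32851 windows of the table. The TATA box letters TATAAA were also in the Mmp3 window alone among the 8, against 13.6% of all windows. The GC box GGGCGG occurred in 6 of the 8 windows, among them Timp1, Mmp14 (2 matches side by side) and Mmp15, against 35.7% of all windows. These matches describe letters in the window and not bound sites.

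Values are RPKM (reads per kilobase of the listed transcript and normalized to the reads of the library), from libraries with scaling totals of 18132820 to 19282760 reads. The change of a gene is the right minus the left mean of log2(RPKM + 0.5), a scale that understates changes of low genes, and a gene was called when its limma p-value, adjusted over all tested genes, was under 0.05. The 10 most abundant genes took 46.6% to 48.1% of the summed RPKM in the left and 25.7% to 26.3% in the right legs of C57BL/6, and 35.7% to 45.0% and 22.8% to 25.3% in BALB/c. Over all tested genes the median change was 0.52 in C57BL/6 and 0.38 in BALB/c, so changes are also given relative to that median and after rescaling with median-of-ratios size factors. The summed level of 10 muscle fibre markers was 155420 to 165820 RPKM in the left and 72544 to 80644 RPKM in the right legs of C57BL/6, and 107350 to 144830 RPKM and 62943 to 87650 RPKM in BALB/c, and no fibre marker was at 0 in all libraries of a group. Of these 10 markers, 2 were called higher and 8 lower in C57BL/6, and 0 higher and 3 lower in BALB/c. The counts were the same after rescaling. Of all tested genes, 63.6% were called higher and 8.56% lower in C57BL/6, and 42.5% and 7.67% in BALB/c. After rescaling these shares were 28.2% and 26.4% in C57BL/6, and 21.8% and 19.0% in BALB/c. In bulk tissue, more cells of a type and more RNA per cell cannot be told apart.

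In C57BL/6, 7 members rose and 2 fell in the denervated leg, and in BALB/c 4 rose and 1 fell by limma. Of all tested genes, 63.6% rose and 8.56% fell in C57BL/6, and 42.5% rose and 7.67% fell in BALB/c, so the number of members that rose was near the background in both strains. Of the 7 in C57BL/6, Mmp3 and Mmp9 had a left mean under the filter of 0.1 RPKM and were tested only because their right legs raised the mean over the 6 libraries of that strain. All right libraries lay above all left ones for 7 members in C57BL/6 and 5 in BALB/c, against 66.2% and 48.1% of tested genes. After rescaling, 3 members rose and 3 fell in C57BL/6 (28.2% and 26.4% of all genes), and 2 rose and 2 fell in BALB/c (21.8% and 19.0%). The median change of the 10 members was 0.50 in C57BL/6 and 0.26 in BALB/c. What set single members apart was the spread among them: the relative log2 change ran from -1.28 for Timp3 to 4.59 for Timp1 in C57BL/6, and from -1.41 for Mmp15 to 2.58 for Timp1 in BALB/c. Timp1, Mmp2 and Mmp15 in both strains, and Timp3 and Mmp14 in C57BL/6, kept their direction and call under each of the 14 alternative settings run within a strain.

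**Figure D1:**
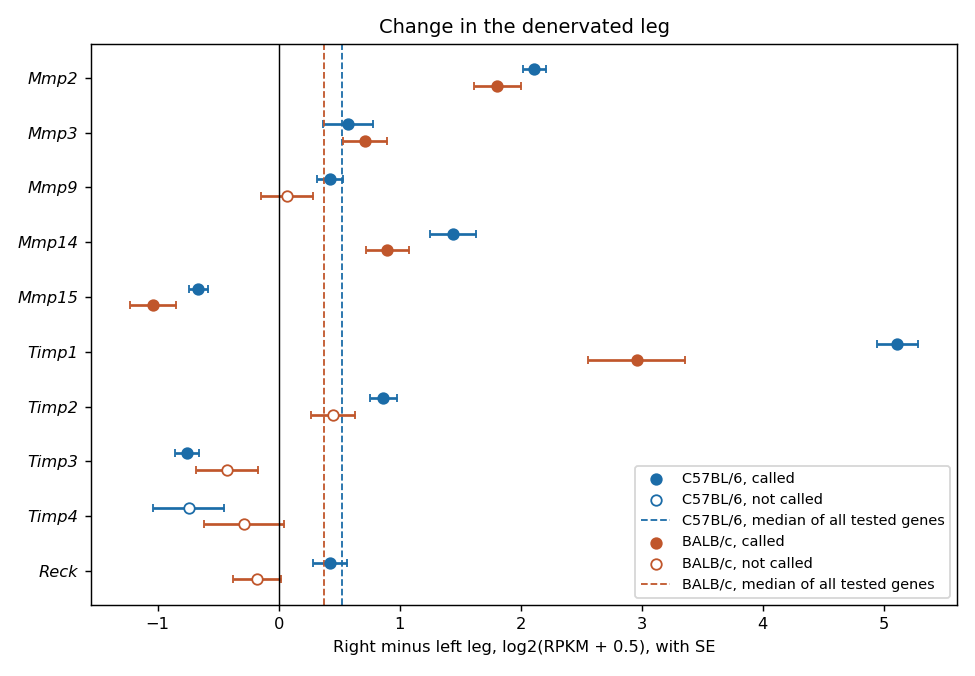
Change of each member in the right against the left leg (x axis, difference of mean log2(RPKM + 0.5), bars are SE) in C57BL/6 (blue) and BALB/c (orange). Filled points were called and open points were not, and dashed lines mark the median tested gene at 0.52 and 0.38; Timp1 and Mmp2 lie right of both lines and Mmp15 lies left of 0 in both strains.

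Among the proteases, Mmp2 (gelatinase A, which cuts denatured collagen and type IV collagen; NM_008610, mm9 chromosome 8, 95351196 to 95377320) was the member MMP with the largest rise. In C57BL/6 Mmp2 had 4.45, 5.13 and 5.09 RPKM in the left legs and 21.9, 25.5 and 21.2 RPKM in the right legs. In BALB/c Mmp2 had 15.8, 25.8 and 24.6 RPKM in the left legs and 73.7, 73.1 and 84.3 RPKM in the right legs. The legs did not overlap in either strain, and the left libraries of BALB/c stood near the right libraries of C57BL/6, a comparison across tables that were normalized separately and that was not tested. The log2 change was 2.11 ± 0.10 (SE, adjusted p = 3.03e-06) in C57BL/6 and 1.81 ± 0.20 (adjusted p = 2.24e-04) in BALB/c. After rescaling, the change was 1.43 and 1.29. The difference between the strains in this change was -0.30 on the log2 scale (95% interval -0.81 to 0.20, adjusted p = 0.434) and was not called.

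Mmp14, the membrane enzyme that activates proMMP2 (NM_008608, chromosome 14, 55050435 to 55061293), was less abundant than Mmp2 in every group. In C57BL/6 Mmp14 had 1.61, 1.73 and 1.72 RPKM in the left and 4.13, 7.54 and 5.11 RPKM in the right legs, with all right libraries above all left ones. In BALB/c Mmp14 had 3.36, 5.08 and 4.70 RPKM in the left and 9.11, 8.73 and 7.71 RPKM in the right legs, again without overlap. The log2 change was 1.44 ± 0.19 (adjusted p = 3.23e-04) and 0.90 ± 0.18 (adjusted p = 0.0035). The BALB/c call was lost after rescaling (log2 change 0.42, adjusted p = 0.0612), while the C57BL/6 call was kept (0.83, adjusted p = 0.00544).

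Mmp15 (MT2-MMP, another membrane-anchored enzyme; NM_008609, chromosome 8, 97876196 to 97898193) went the other way. In C57BL/6 Mmp15 fell from 7.13, 6.45 and 7.13 RPKM in the left to 4.35, 4.0 and 4.15 RPKM in the right legs. In BALB/c Mmp15 fell from 8.80, 10.5 and 11.0 RPKM to 6.02, 3.71 and 4.47 RPKM. Every right library lay below every left library of its strain, as for 9.57% of tested genes in C57BL/6 and 10.4% in BALB/c. The log2 change was -0.66 ± 0.08 (adjusted p = 1.91e-04) in C57BL/6 and -1.04 ± 0.19 (adjusted p = 0.00258) in BALB/c. In the intact C57BL/6 leg Mmp15 was the most abundant member MMP by mean RPKM, and in the other 3 groups Mmp2 was.

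Mmp3 (stromelysin 1, which cuts proteoglycans and activates other MMPs; NM_010809, chromosome 9, 7445822 to 7455974) was present in few reads. In C57BL/6 Mmp3 had 1, 1 and 0 reads in the left legs, all under the limit of 3 reads (0.0870 to 0.0925 RPKM), and 2, 17 and 11 reads in the right legs. The right to left ratio over the group was 14.9 (exact 95% interval 3.77 to 128, counting error only). In BALB/c Mmp3 had 5, 8 and 16 reads on the left side and 30, 28 and 22 on the right, a ratio of 2.66 (1.72 to 4.23). All right libraries lay above all left ones in both strains, and right library 1 of C57BL/6, with 2 reads, lay closest to the left legs. In C57BL/6 the left mean of 0.0197 RPKM lay under the filter, so the gene entered the test through its right legs alone, and its limma call there (adjusted p = 0.0369) is no support beyond the read counts. In BALB/c the gene was called as higher with a left mean over the filter (adjusted p = 0.0127). The calls were lost after rescaling (adjusted p = 0.0649 and 0.0814) and without the filter on low values (0.13 and 0.0511). In C57BL/6 the call was also lost without left library 1 (0.0793), left library 2 (0.0774), left library 3 (0.098) or right library 3 (0.099), and without right library 2 the gene was under the filter.

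Mmp9 (gelatinase B, made by neutrophils and macrophages among others; NM_013599, chromosome 2, 164773719 to 164781350) was lowest or next to lowest of the 10 members in every group. In C57BL/6 Mmp9 had 3, 7 and 2 reads on the left side and 13, 19 and 15 on the right, and all right libraries lay above all left ones. The ratio was 3.88 (2.03 to 8.03), and the gene was called as higher (log2 change 0.42 ± 0.11, adjusted p = 0.00931). Its C57BL/6 left mean of 0.0673 RPKM was under the filter and its right mean of 0.261 RPKM over it, so it was tested through the right legs; with no filter the adjusted p was 0.0126. Relative to the median tested gene the C57BL/6 change was -0.10. The C57BL/6 call was lost after rescaling (adjusted p = 0.0783) and with a spread shared over all 12 libraries (0.053). In BALB/c Mmp9 had 12, 20 and 2 reads on the left side and 19, 18 and 4 on the right, so the legs overlapped and library 3 was low on both sides. The BALB/c ratio was 1.16 (0.721 to 1.89), and the log2 change of 0.07 ± 0.22 was not called (adjusted p = 0.804). The difference in change between the strains was -0.35 (95% interval -0.91 to 0.20) and was not called, so the strains are not shown to differ.

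**Figure D2:**
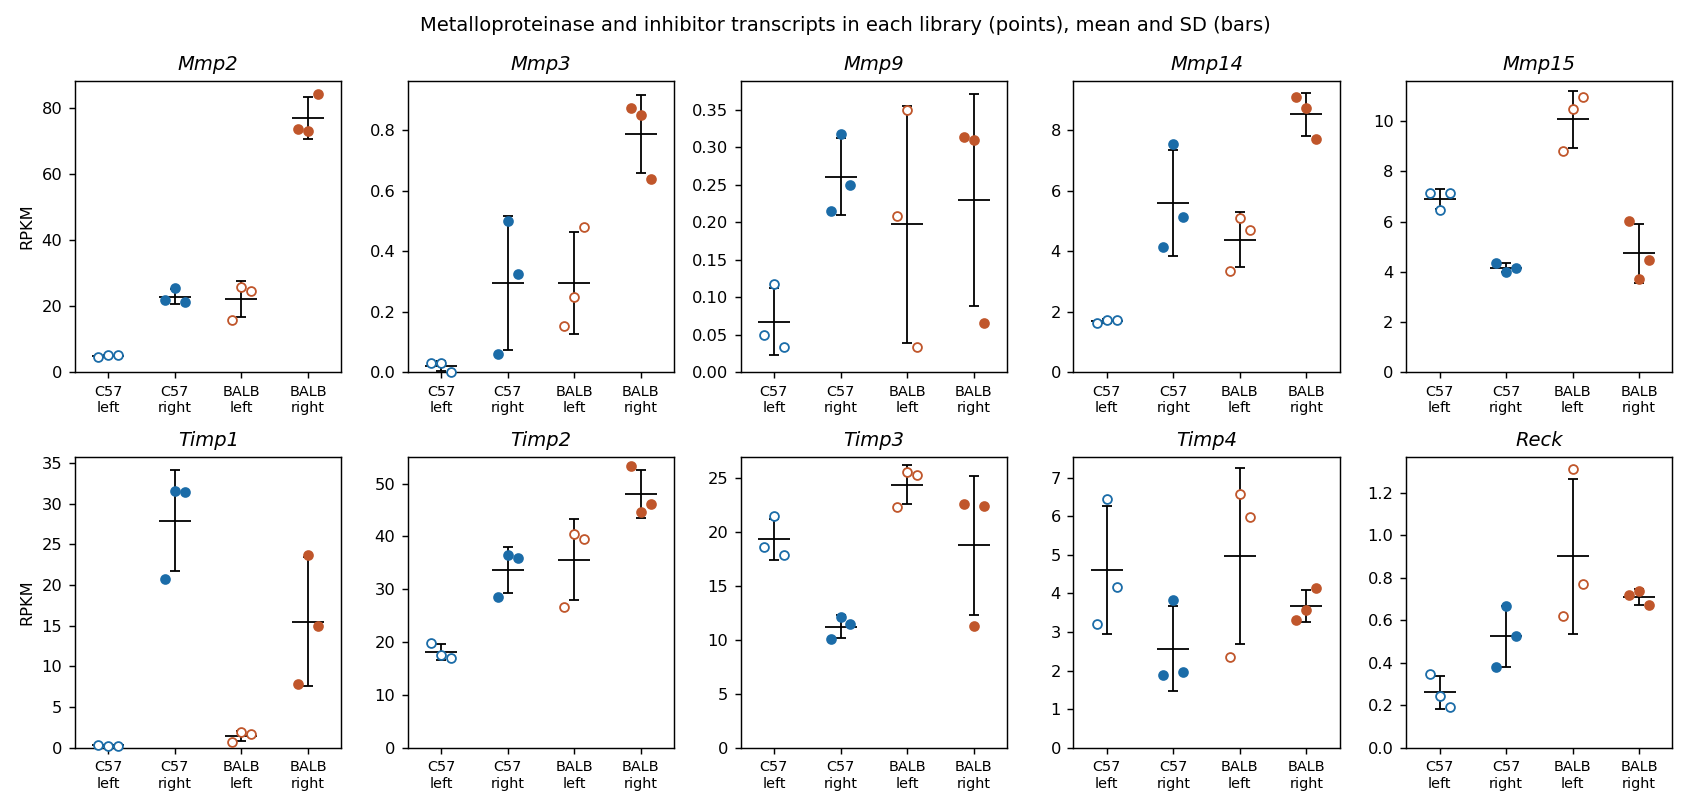
RPKM (y axes, each from 0) of the 10 members in every library, with left legs as open and right legs as filled points, C57BL/6 in blue and BALB/c in orange; bars give the mean and SD of 3 libraries. The right libraries of Timp1 and Mmp2 lie above the left ones in both strains, while Timp4 and Mmp9 overlap between the legs in BALB/c.

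Among the inhibitors, Timp1, which inhibits many secreted MMPs and binds proMMP9 (NM_001294280, chromosome X, 20447292 to 20451863), changed the most. In C57BL/6 Timp1 had 0.394, 0.266 and 0.265 RPKM in the left legs, or 6, 4 and 4 reads, and 20.8, 31.6 and 31.4 RPKM in the right legs. In BALB/c Timp1 had 0.751, 1.92 and 1.68 RPKM in the left and 7.84, 23.7 and 14.9 RPKM in the right legs. The legs were far apart in both strains, and the BALB/c right legs spread widely, with library 2 the highest. The ratio of right to left reads was 90.5 (exact 95% interval 53.7 to 166) in C57BL/6 and 10.6 (8.19 to 13.9) in BALB/c, where the intervals cover counting error only. The log2 change by limma was 5.11 ± 0.17 (adjusted p = 9.6e-07) and 2.96 ± 0.40 (adjusted p = 5.98e-04). It was at or above that of 99.7% of tested genes in C57BL/6 and of 98.9% in BALB/c.

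The rise of Timp1 was larger in C57BL/6 than in BALB/c. The difference between the changes was -2.15 ± 0.49 on the log2 scale (95% interval -3.22 to -1.09, adjusted p = 0.0264), and Timp1 was the 1 member of 10 called, where 4.33% of tested genes were called lower and 1.76% higher (3.49% and 3.71% after rescaling, when Timp1 was again called, adjusted p = 0.0324). Both the lower left level in C57BL/6 (0.308 ± 0.0742 against 1.45 ± 0.618 RPKM, SD, n = 3 each) and the higher right level (27.9 ± 6.17 against 15.5 ± 7.93 RPKM) entered this difference. The call was lost without the filter (adjusted p = 0.0909) and with limma-voom on recovered reads (adjusted p = 0.0814). It was also lost without C57BL/6 left library 1 (0.0528), 2 (0.0623) or 3 (0.0692), C57BL/6 right library 2 (0.0688) or 3 (0.0718), and BALB/c left library 2 (0.0623) or 3 (0.059). The difference stayed between -2.52 and -1.75 when single libraries were left out. The other differences between the strains were -0.54 for Mmp14 (95% interval -1.13 to 0.05), -0.37 for Mmp15 (-0.83 to 0.09), 0.14 for Mmp3 (-0.48 to 0.76), -0.42 for Timp2 (-0.91 to 0.07), 0.46 for Timp4 (-0.61 to 1.52) and -0.61 for Reck (-1.14 to -0.07, adjusted p = 0.155), and none of these was called by limma; of all genes, 3443 had an unadjusted p under 0.05.

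Timp2, the partner of Mmp14 in proMMP2 activation (NM_011594, chromosome 11, 118162375 to 118216725), was abundant in all groups. In C57BL/6 Timp2 rose from 19.9, 17.6 and 17.0 RPKM in the left to 28.5, 36.5 and 36.0 RPKM in the right (log2 change 0.87 ± 0.11, adjusted p = 3.13e-04). In BALB/c Timp2 had 26.7, 40.4 and 39.6 RPKM in the left and 53.3, 44.7 and 46.2 RPKM in the right legs. The BALB/c legs did not overlap, but the log2 change of 0.45 ± 0.18 missed the threshold (adjusted p = 0.0734) and passed it with a spread shared over all 12 libraries (0.0288). Relative to the median gene the change was 0.34 and 0.07, and after rescaling it was 0.16 (adjusted p = 0.262) in C57BL/6 and -0.07 (0.734) in BALB/c, called in neither.

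Timp3, which binds to the matrix and also inhibits ADAM proteases (NM_011595, chromosome 10, 85763157 to 85812250), fell in C57BL/6 from 18.6, 21.4 and 17.8 RPKM to 10.1, 12.1 and 11.4 RPKM. All right libraries were lower than all left ones (log2 change -0.76 ± 0.10, adjusted p = 3.3e-04). In BALB/c Timp3 had 22.3, 25.5 and 25.2 RPKM in the left and 22.6, 11.3 and 22.4 RPKM in the right legs, so that right library 2 alone stood below the left range. The BALB/c change of -0.43 ± 0.26 was not called (adjusted p = 0.198), and after rescaling it was (-0.94, adjusted p = 0.0106). The difference between the strains, 0.33 (95% interval -0.33 to 0.98), was not called, and was called without BALB/c right library 2 (0.65, adjusted p = 0.0243). Timp3 shares 1733 exon bases with Syn3 on the other strand, which the unstranded counting cannot separate; the mean of Syn3 was 0.049 to 0.114 RPKM over the 4 groups.

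Timp4, a TIMP with a restricted tissue range that includes heart and muscle (NM_080639, chromosome 6, 115194464 to 115202223), varied among libraries of a group. In C57BL/6 Timp4 had 3.22, 6.44 and 4.16 RPKM in the left and 1.89, 3.84 and 1.97 RPKM in the right legs, which overlapped. In BALB/c Timp4 had 2.35, 6.58 and 5.98 RPKM in the left and 3.32, 3.57 and 4.14 RPKM in the right legs, again overlapping. It shares 90 exon bases with Syn2 on the other strand, whose mean was 0.098 to 0.469 RPKM. Neither change was called (-0.74 ± 0.30, adjusted p = 0.0532, and -0.29 ± 0.33, adjusted p = 0.496). In C57BL/6 Timp4 passed as lower after rescaling (adjusted p = 0.00471), with a filter of 1 RPKM (0.0407), with limma-voom (0.0335), and without left library 1 (0.0342) or right library 2 (0.0115). In BALB/c Timp4 passed as lower without left library 1 (-0.70, adjusted p = 0.0167).

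Reck, the membrane-anchored inhibitor (NM_016678, chromosome 4, 43888402 to 43957678), was among the 3 least abundant members in every group. In C57BL/6 Reck had 0.347, 0.242 and 0.193 RPKM in the left and 0.38, 0.669 and 0.525 RPKM in the right legs, a narrow gap between the groups. Its change relative to the median tested gene was -0.10. It was called as higher (log2 change 0.42 ± 0.14, adjusted p = 0.0263), but not after rescaling (0.12, adjusted p = 0.478), without the filter (0.0697), or without left library 2 (0.0719), left library 3 (0.0881), right library 2 (0.0738) or right library 3 (0.0637). In BALB/c Reck had 0.621, 1.31 and 0.769 RPKM in the left and 0.72, 0.739 and 0.67 RPKM in the right legs. The right libraries lay inside the left range, and the change of -0.18 ± 0.20 was not called (adjusted p = 0.474).

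The make-up of each family was compared within libraries, which does not depend on how a library was scaled. Mmp2 made up 33.5% to 38.1% of the summed RPKM of the 5 member MMPs in the left legs of C57BL/6 and 67.3% to 71.4% in the right legs. In BALB/c its share went from 55.8% to 61.5% in the left to 81.9% to 86.8% in the right legs. The share of Mmp15 went from 47.9% to 53.7% down to 10.6% to 14.2% in C57BL/6, and from 25.03% to 31.1% down to 4.28% to 6.68% in BALB/c. Mmp14 held 12.2% to 12.9% in the left and 13.5% to 19.9% in the right legs of C57BL/6, and 11.5% to 12.1% and 7.93% to 10.1% in BALB/c. The intact legs of the strains differed in their leading enzyme, and after denervation Mmp2 led in both.

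Within the TIMPs, Timp1 went from 0.581% to 0.935% of the summed RPKM in the left legs of C57BL/6 to 33.9% to 38.9% in the right legs. In BALB/c it went from 1.44% to 2.58% to 9.01% to 28.4%. Timp3 held 44.2% to 46.9% in the left and 14.1% to 16.5% in the right legs of C57BL/6, and 34.3% to 42.7% and 13.6% to 25.95% in BALB/c. Timp2 kept a large share throughout, 38.5% to 47.2% and 43.4% to 46.5% in C57BL/6, and 51.3% to 54.6% and 52.7% to 61.2% in BALB/c. Timp1 held a larger share than Timp3 in all right libraries of C57BL/6, and in BALB/c in right library 2 alone.

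**Figure D3:**
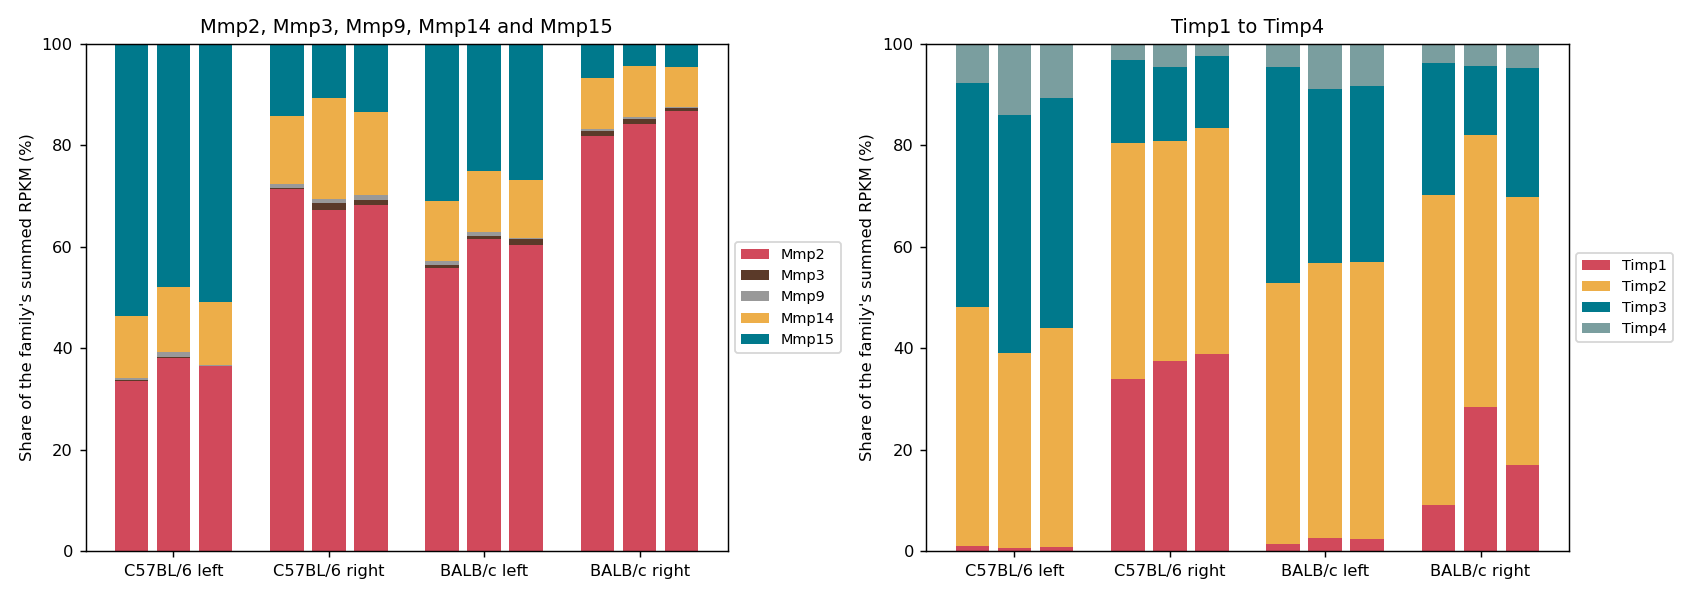
Share (y axis, percent) of each gene in the summed RPKM of the 5 member MMPs (left panel) and of the 4 TIMPs (right panel), 1 bar per library in the order of the library numbers, in the 4 groups. Mmp2 rises to 67.3% to 71.4% in the right legs of C57BL/6 and 81.9% to 86.8% in those of BALB/c, and Timp1 is under 3% in all left libraries.

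Ratios of an inhibitor to a protease were also taken within each library, as ratios of transcript levels per length and not of proteins. Timp2 stood to Mmp2 at 3.34 to 4.47 in the left and 1.30 to 1.70 in the right legs of C57BL/6, and at 1.57 to 1.69 and 0.548 to 0.722 in BALB/c. The mean log2 ratio, right minus left, was -1.34 in C57BL/6 and -1.38 in BALB/c. Timp2 stood to Mmp14 at 9.87 to 12.3 and 4.84 to 7.04 in C57BL/6, and at 7.96 to 8.43 and 5.12 to 5.99 in BALB/c. These legs did not overlap in either strain for either ratio.

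Over the whole set, the summed TIMPs stood to the summed member MMPs at 2.81 to 3.40 in the left and 2.0 to 2.60 in the right legs of C57BL/6. In BALB/c the ratio was 1.77 to 1.84 in the left and 0.902 to 0.966 in the right legs, so that member MMP transcripts outweighed TIMP transcripts there alone among the 4 groups. The legs did not overlap, although Timp1 itself had risen. Timp1 stood to Mmp9 at 2.25 to 7.88 in the left and 96.7 to 126 in the right legs of C57BL/6, and at 3.61 to 49.3 and 25.1 to 226 in BALB/c, where the legs overlapped; Mmp9 had as few as 2 reads in a library, so this ratio is imprecise. No test was made of the ratios.

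**Figure D4:**
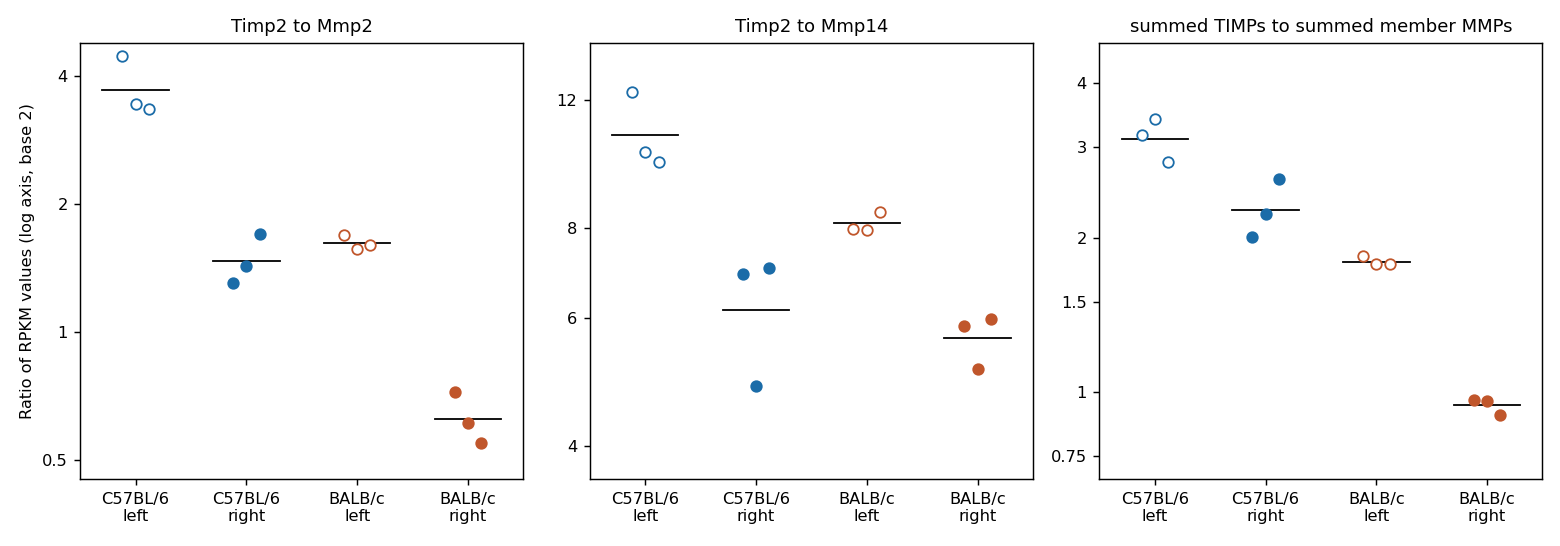
Ratio of RPKM values within each library (y axes, log scale with base 2) for Timp2 to Mmp2, Timp2 to Mmp14 and the summed TIMPs to the summed member MMPs, by strain and leg; points are libraries and lines are geometric means. In all 3 panels the right libraries lie below the left libraries of their strain, and the third panel ends at 0.902 to 0.966 in the right legs of BALB/c.

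Marker levels of macrophages and fibroblasts are given beside the members, and no correlation between them was computed. The summed level of 13 macrophage markers was 10.1 to 13.6 RPKM in the left and 93.6 to 186 RPKM in the right legs of C57BL/6, and 63.2 to 107 and 187 to 302 RPKM in BALB/c; 13 of 13 rose in C57BL/6 and 9 of 13 in BALB/c (13 and 7 after rescaling), where 63.6% and 42.5% of all tested genes rose (28.2% and 21.8% after rescaling). The summed level of 12 fibroblast and fibro-adipogenic progenitor markers (the connective tissue cells of muscle) was 101 to 159 RPKM in the left and 264 to 515 RPKM in the right legs of C57BL/6, where 11 of 12 rose (7 rose and 1 fell after rescaling). In BALB/c that sum overlapped between the legs, at 621 to 969 RPKM in the left and 636 to 823 RPKM in the right, with 4 of 12 higher and 2 lower, against 42.5% and 7.67% of all genes. After rescaling 4 of these 12 were lower in BALB/c and the others were not called. Of all tested genes, 19.0% were lower in BALB/c and 26.4% in C57BL/6 after rescaling. No marker of these lists was at 0 in all libraries of a group. Col1a1, a gene for a chain of type I collagen and 1 of these 12 markers, was picked outside the rule by which other genes were named. It had 121 to 181 RPKM in the left and 81.9 to 104 RPKM in the right legs of BALB/c, and 8.55 to 11.7 and 27.5 to 55.7 RPKM in C57BL/6. Its lower right values in BALB/c do not stand for the list, where 4 of 12 were called higher and 2 lower. The part of macrophages and fibroblasts in the changes of Timp1, Mmp2, Mmp3, Mmp9 and Mmp14 was not tested.

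Beside Mmp9, the 10 neutrophil markers summed to 0.06 to 1.56 RPKM over the 6 left libraries and to 40.4 to 341 RPKM over the 6 right libraries, nearly all of it from S100a8. S100a8 had 106 to 283 RPKM in the right legs of C57BL/6 and 39.3 to 338 RPKM in those of BALB/c, whereas its usual partner S100a9 had at most 2.21 RPKM in any library and Ly6g was at 0 in 11 of 12 libraries. In all left libraries of a strain 6 of the 10 were at 0 in C57BL/6 and 4 in BALB/c. In all right libraries 4 of the 10 were at 0 in C57BL/6 and 0 in BALB/c. Of the 10, 3 were tested in C57BL/6 and 4 in BALB/c. Of those, 3 and 2 were called higher (1 and 2 after rescaling). Endothelial markers, given beside Mmp15, Timp3 and Timp4, summed to 72.0 to 88.6 and 70.2 to 88.5 RPKM in the left and right legs of C57BL/6, and to 112 to 153 and 97.7 to 138 RPKM in BALB/c, with 3 and 2 of 10 called lower and 0 and 1 called higher. After rescaling 9 of 10 were called lower in C57BL/6 and 8 of 10 in BALB/c, against 26.4% and 19.0% of all genes. Tendon markers, given beside Mmp2 and Mmp14, summed to 14.2 to 20.5 and 105 to 265 RPKM in C57BL/6 and overlapped in BALB/c, at 148 to 283 and 225 to 264 RPKM; 6 of 8 rose in C57BL/6, and 1 rose and 2 fell in BALB/c (4 rose, and 1 rose and 5 fell, after rescaling). Schwann cell markers varied among libraries, from 6.90 to 195 RPKM in the left legs of C57BL/6, and 1 of 9 rose in that strain. In BALB/c 2 rose and 3 fell (1 and 5 after rescaling). For comparison, 63.6% of all tested genes rose and 8.56% fell in C57BL/6, and 42.5% rose and 7.67% fell in BALB/c. After rescaling these shares were 28.2% and 26.4% in C57BL/6, and 21.8% and 19.0% in BALB/c. The part of the cell types named in this paragraph was not tested.

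Of 18 other matrix metalloproteinases in the tables, 8 were tested in each strain, and 7 of the 8 rose in each, against 63.6% and 42.5% of all genes. After rescaling 4 rose in each, against 28.2% of all genes in C57BL/6 and 21.8% in BALB/c. With a filter of 1 RPKM 4 rose in each, and the number tested with that filter is not given here. In C57BL/6 Mmp23 (a membrane enzyme of unusual domain structure) rose from 0.246, 0.29 and 0.33 to 1.91, 5.85 and 4.41 RPKM (log2 change 2.42 ± 0.32, adjusted p = 3.44e-04). In BALB/c it rose from 1.62, 1.93 and 1.21 to 5.01, 9.66 and 2.86 RPKM (1.47 ± 0.37, adjusted p = 0.0112), a call lost after rescaling (0.0691). Mmp11 (stromelysin 3) rose from 0.903, 1.30 and 0.881 to 3.04, 3.67 and 2.73 RPKM in C57BL/6 and from 1.91, 2.35 and 2.38 to 7.91, 4.74 and 7.0 RPKM in BALB/c (log2 change 1.26 and 1.35, adjusted p = 1.63e-04 and 0.00101), with no overlap between the legs. The Mmp23 call in BALB/c was also lost without the filter (0.0832). Mmp8, the neutrophil collagenase, was picked after its values were seen: it was at 0 in the 3 left libraries of C57BL/6 and at 0.237 to 0.343 RPKM in the right ones, and at 0 to 0.11 and 0.378 to 1.38 RPKM in BALB/c, so that it too entered the test through the right legs. The 8 tested genes include Mmp8, and how many of the others entered in this way was not counted. A gene with a left mean under the filter can pass it only with a higher right mean. The count of 7 of 8 was therefore not independent of the filter.

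Of 20 ADAM and ADAMTS proteases, which shed cell surface proteins and cut proteoglycans, 18 were tested in C57BL/6, where 10 rose and 1 fell (6 and 4 after rescaling), and 63.6% of all genes rose. In BALB/c 20 were tested and 3 rose, a smaller share than the 42.5% of all genes, and 3 rose and 3 fell after rescaling. Without BALB/c right library 2, 5 rose. Of all tested genes, 8.56% fell in C57BL/6 and 7.67% in BALB/c. After rescaling 28.2% of all genes rose and 26.4% fell in C57BL/6, and 21.8% and 19.0% in BALB/c. Adam19 rose from 0.504, 0.50 and 0.64 to 2.67, 2.54 and 2.90 RPKM in C57BL/6 (log2 change 1.61, adjusted p = 9.8e-06) and from 1.25, 1.69 and 1.47 to 7.52, 4.50 and 11.1 RPKM in BALB/c (1.98, adjusted p = 8.65e-04). Adamts20 rose by 1.33 and 1.32 on the log2 scale (adjusted p = 2.52e-05 and 0.00443). The gene that fell in C57BL/6 was Adamts1, from 6.23 ± 0.426 to 5.24 ± 0.420 RPKM (SD, n = 3 each; log2 change -0.23). Its adjusted p, which rounds to 0.05, was just under the threshold, and the call was lost with a pseudocount of 1 (0.0502), without the filter (0.0739), with a spread shared over all 12 libraries (0.557), and without left library 1 (0.0733), 2 (0.161) or 3 (0.0637) or right library 1 (0.0956) or 2 (0.144). After rescaling limma called Adamts1 as lower (log2 change -0.89, adjusted p = 2e-04).

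Of 11 genes of plasminogen activation, the protease system that activates several MMPs, 8 were tested; 6 rose and 1 fell in C57BL/6, and 4 rose and 1 fell in BALB/c (3 and 1, and 1 lower in BALB/c, after rescaling; 2 rose in BALB/c without left library 1, and 1 without the filter). Of all genes, 63.6% rose and 8.56% fell in C57BL/6, and 42.5% rose and 7.67% fell in BALB/c. After rescaling these shares were 28.2% and 26.4% in C57BL/6, and 21.8% and 19.0% in BALB/c. Serpine2 (protease nexin 1, an inhibitor of thrombin and plasminogen activators) fell in both strains, from 42.6, 47.1 and 46.0 to 22.5, 26.3 and 24.7 RPKM in C57BL/6 and from 36.3, 40.1 and 38.1 to 17.3, 17.9 and 19.0 RPKM in BALB/c. Its log2 change was -0.87 (adjusted p = 5.52e-05) and -1.06 (adjusted p = 2.36e-04), with a wide gap between the legs. Anxa2 and S100a10, subunits of a plasminogen receptor at the cell surface, rose by 1.57 and 1.18 in C57BL/6 (adjusted p = 4.22e-04 and 0.00164). In BALB/c S100a10 rose by 0.97 (adjusted p = 0.0123) and Anxa2 by 0.88 (0.0323). In BALB/c both calls were lost without the filter (0.0788 for S100a10 and 0.154 for Anxa2) and after rescaling (0.208 and 0.33), and in C57BL/6 S100a10 was lost after rescaling (0.0744). The Anxa2 call in BALB/c was also lost without left library 1 (0.0968) or 3 (0.0876) or right library 1 (0.0591) or 2 (0.0992).

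Of 15 genes that activate, dock or clear MMPs, 13 were tested in C57BL/6, where 9 rose and 1 fell, and 14 in BALB/c, where 2 rose and 2 fell (5 and 2, and 5 lower in BALB/c, after rescaling). Of all genes, 63.6% rose and 8.56% fell in C57BL/6, and 42.5% rose and 7.67% fell in BALB/c. After rescaling these shares were 28.2% and 26.4% in C57BL/6, and 21.8% and 19.0% in BALB/c. Without BALB/c left library 1 or 3 or right library 1 or 3, 0 of the BALB/c genes rose, and without the filter all 4 BALB/c calls were lost. Lrp1, an endocytic receptor that clears MMP and TIMP complexes, rose from 1.43, 1.81 and 1.37 to 8.56, 8.74 and 9.64 RPKM in C57BL/6 (log2 change 2.23, adjusted p = 3.55e-06). In BALB/c it went from 4.04, 8.63 and 5.46 to 10.6, 9.35 and 11.4 RPKM (0.80, adjusted p = 0.0267), a call lost without the filter (0.121), after rescaling (0.246), and without left library 1 (0.0742) or 3 (0.0797) or right library 1 (0.07) or 3 (0.0837). Furin, which cuts the propeptide of membrane-type MMPs, rose by 0.80 in BALB/c (adjusted p = 0.0228), a call lost without the filter (0.107), after rescaling (0.252), and without left library 1 (0.0624) or 3 (0.0704) or right library 1 (0.0765) or 3 (0.0798).

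Thbs1, thrombospondin 1, rose in C57BL/6 from 0.154, 0.275 and 0.237 to 0.494, 2.42 and 3.85 RPKM (log2 change 1.69, adjusted p = 0.0149), a call lost without the filter (0.0905) or without right library 2 (0.0503). Bsg (basigin, an inducer of MMPs) went from 521 ± 36.3 to 436 ± 22.7 RPKM in C57BL/6 (SD, n = 3 each; log2 change -0.26, adjusted p = 0.0319), a fall lost without the filter (0.0622), with a shared spread (0.101), and without left library 2 (0.0956) or 3 (0.0965) or right library 2 (0.06) or 3 (0.108). Pcsk6, a furin-like convertase, went from 5.52 ± 1.59 to 3.06 ± 0.642 RPKM in BALB/c (log2 change -0.74, adjusted p = 0.024), lost without the filter (0.0947) and without left library 2 (0.0626) or 3 (0.0501) or right library 2 (0.0635) or 3 (0.0775). After rescaling limma called both falls, Bsg at -0.98 (adjusted p = 7.44e-05) and Pcsk6 at -1.21 (adjusted p = 0.00171). Rescaling moved the median change of all genes to 0.02 in each strain. The change was lower in BALB/c than in C57BL/6 for 4 of the 13 genes of this list tested in both strains (Itgav, Lrp1, Pcsk6 and Thbs2) and for 1 of 18 ADAM and ADAMTS genes (Adam17, log2 difference -1.17, adjusted p = 0.0179). In this comparison 4.33% of all tested genes were called lower and 1.76% higher (3.49% and 3.71% after rescaling). Of the 13, 0 were called lower without C57BL/6 left library 3 or right library 3, 1 without C57BL/6 right library 2 or without the filter, and 2 without C57BL/6 left library 1 or BALB/c left library 2, left library 3 or right library 3. Adam17 was not called without C57BL/6 right library 2 or 3, and 2 ADAM and ADAMTS genes were called without BALB/c left library 1. By limma 0 of 8 other MMPs and 0 of 8 plasminogen genes differed between the strains, with 1 and 2 at an unadjusted p under 0.05 and 0 of the other MMPs called by limma-voom, and 2 other MMPs were called as higher without BALB/c right library 2.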

How the data were processed

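HOMER, per the file headers, was run on exons of its mm9 annotation without regard to strand, with 1 transcript kept per gene and RPKM as output; the authors deposited 1 RPKM table per strain, whose column names say FPKM. The authors also used HISAT2 and DESeq2, per the submitters' processing notes, which name the builds GRCm38 and mm10. The alignment's build is not stated there. Table columns were assigned by the codes that the sample descriptions give (library 3 of each BALB/c leg has the code 4), and every sample column was used. Gene positions are mm9, as the files list them.

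Reads were recovered as RPKM times the transcript's length times a total found per library, and 98.6% to 99.7% of a library's values came out whole within 0.1 read. Right and left legs were compared within a table with limma 3.58.1 in R 4.3.3 on log2(RPKM + 0.5) (eBayes with a trend, two-sided, Benjamini-Hochberg over all genes averaging 0.1 RPKM or more: 14551 in C57BL/6 and 14819 in BALB/c). The difference between strains was a contrast over all 12 libraries (14165 genes). Exact binomial intervals came from SciPy 1.17.1. Shared exon bases were counted in GENCODE M21 (GRCm38).

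All members are described. Genes of 4 further lists were named by rule: per strain, up to 2 called genes in each direction with the largest change and a mean of at least 1 RPKM. Itgav, Thbs2 and Adam17 were named outside this rule, because they were called in the difference between strains. The members and lists were chosen with earlier results of these data known. Other settings tried were pseudocounts of 0.1 and 1, dropping the filter, a filter of 1 RPKM, median-of-ratios rescaling, limma-voom on recovered reads, a spread shared over 12 libraries, the replicate number as a block, and leaving out each library.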

Additional observations from a re-analysis of the deposited data

Results flagged for a closer look

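The change of Timp1 was called as different between the strains in the main test of the difference itself. The change in BALB/c minus that in C57BL/6 was -2.154 on the log2(RPKM + 0.5) scale (limma adjusted p = 0.0264). The call was lost under 9 of 19 other settings, with limma adjusted p up to 0.0909. All 3 right libraries lay above all 3 left libraries in each strain, which bears on the change within a strain and not on this difference. Groups of 3 libraries are too small for a test of single outlying libraries, and none was made.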

How the results depend on the processing

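Rescaling by median-of-ratios factors changed, in C57BL/6, the calls from 9258 higher and 1246 lower to 4106 and 3840, and in BALB/c from 6302 and 1136 to 3225 and 2817; members called higher went from 7 to 3 in C57BL/6 and from 4 to 2 in BALB/c, and members called lower in BALB/c from 1 to 2. In the difference between strains it moved the genes called higher from 249 to 525. The filter of 1 RPKM left 4 members called higher in C57BL/6, where fewer members were tested. Without a filter 317 genes instead of 613 were called lower in the difference between strains; there 0 members were called both without a filter and with limma-voom. The cause of the other changes was not tested.

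Leaving out single libraries gave 5 to 7 members higher and 2 to 3 lower in C57BL/6, and 4 higher and 1 to 2 lower in BALB/c. It gave 8595 to 9101 genes higher and 1099 to 1193 lower in C57BL/6, and 5086 to 6779 higher and 857 to 1085 lower in BALB/c. For the difference between strains it gave 81 to 505 genes higher and 226 to 1028 lower, with 0 to 1 member in each direction. The log2 ratios (right minus left) were -1.44 to -1.21 for Timp2 to Mmp2, -0.89 to -0.62 for Timp2 to Mmp14, -0.57 to -0.38 for summed TIMPs to MMPs and 3.77 to 4.67 for Timp1 to Mmp9 in C57BL/6, and -1.49 to -1.29, -0.57 to -0.46, -0.95 to -0.90 and 2.14 to 4.09 in BALB/c.

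Changes of direction were found for uncalled values alone. Mmp9 in BALB/c was -0.064 after rescaling and -0.108, -0.017 and -0.013 without left library 3, right library 1 or right library 2, in a range of -0.108 to 0.244. Timp2 in BALB/c was -0.071 after rescaling, and Reck in BALB/c 0.02 without left library 2, in a range of -0.327 to 0.02. The strain difference of Mmp3 was -0.284 with a pseudocount of 0.1, -1.419 with limma-voom, and -0.092 to 0.305 when single libraries were left out (lowest without right library 1 of C57BL/6).

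Same-numbered legs correlated in their deviations from the group means by 0.007 to 0.182 in C57BL/6 and 0.01 to 0.239 in BALB/c. Legs of unlike number correlated by -0.166 to 0.098 in C57BL/6 and by -0.192 to 0.111 in BALB/c. The labels do not say whether same-numbered legs are of 1 mouse. The main fits therefore did not pair them, and a pairing is not excluded. With the replicate block, 7 members were higher and 3 lower in C57BL/6 (Timp4 was called, adjusted p = 0.00131), 4 and 1 in BALB/c, and 0 and 1 in the difference between strains. The block also ended the calls of Adamts1 (0.0937) and Bsg (0.0913) in C57BL/6 and of Pcsk6 (0.0511) in BALB/c, and left 2 instead of 4 genes of the activation, docking and clearance list lower in the difference. Depth limits Mmp3 and Mmp9, which had at most 30 and 20 reads in a library.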
